A study of Mus musculus with 4 samples.

Results

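The genes described here were 43 genes of T cell receptor signaling, out of 24418 genes listed in the deposited table. They were chosen as a list of gene symbols by their known roles, with earlier results of these data known. All 43 symbols were found, and all 43 passed the filter on low values of at least 10 normalized counts in at least 2 libraries. Bulk RNA-seq had been made from regulatory T (Treg) cells sorted from spleens and lymph nodes of Foxp3yfpCre mice, a strain in which the Foxp3 gene drives both a yellow fluorescent protein and the Cre recombinase, so that every library of both groups carried that allele. The sorted cells were held for 3 h with PBS (2 libraries) or with 100 ng/mL TSLP (2 libraries), a cytokine released by epithelial cells. Mice of the study were 8 to 12 weeks old. The labels did not say whether the libraries of a group came from separate mice, so that the p-values below measured only the spread between these samples, which may be technical. The libraries held 11328132 (PBS 1), 10724392 (PBS 2), 11761234 (TSLP 1) and 10271571 (TSLP 2) reads on genes.

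The T cell receptor binds peptide on MHC and has no enzyme of its own. Its CD3 and zeta chains are phosphorylated by the Src kinase Lck and then recruit the kinase Zap70, which phosphorylates the adaptors Lat and Slp76 (Lcp2). On this scaffold phospholipase C gamma 1 (Plcg1) makes a pair of second messengers. Diacylglycerol opens the Ras and protein kinase C theta branch, and inositol trisphosphate releases calcium, which activates calcineurin and the NFAT factors. Phosphatases, diacylglycerol kinases and inhibitory adaptors damp the signal. Treg cells need their receptor for suppressive function, and TSLP acts through a cytokine receptor coupled to JAK kinases. The values below compare the mRNA of the T cell receptor pathway after 3 h with TSLP or with PBS.

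No member passed the test. With limma on log2(normalized count + 1), in which a normalized count is the read count divided by a size factor of its library, 0 of the 43 members had an adjusted p under 0.05, where 0% of the 11392 genes tested had one. At an unadjusted p under 0.05 there were also 0 members, beside 1.69% of all genes (192 genes), and edgeR and DESeq2 on the recovered reads gave 0 members as well. The adjusted p (limma, over all genes) was 0.9999 for each of the 43 members, and the unadjusted p ran from 0.143 (Itpr1) to 0.987 (Malt1). The fitted log2 fold change, TSLP against PBS, was above 0 for 27 members and below 0 for 16, with a median of 0.02, and over all genes tested it was above 0 for 5838 and below 0 for 5554 with a median of 0.01. The members lay between -0.67 (Tec) and 0.48 (Sos1), and 37 of 43 lay within 0.3 of no difference, that is, within 1.23-fold. For 37 members (86.0%) the 95% interval of the difference stayed within a 2-fold change in either direction, as it did for 43.1% of all genes, whose median level was lower than that of the members. The interval reached past 2-fold for Tec, Lat, Rcan1, Orai1, Itpr1 and Sos1, so that for those genes a difference of 2-fold lay inside the interval.

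One library stood apart. PBS 1 was the highest or the lowest of the 4 libraries for 37 members (highest for 16, lowest for 21), and for 68.1% of all genes tested. Over the members, the median absolute log2 difference was 0.30 between PBS 1 and PBS 2, which had the same treatment, and 0.08 between PBS 2 and TSLP 1, which had not. PBS 2 and TSLP 2 differed by 0.12 and TSLP 1 and TSLP 2 by 0.17 on the same measure, and PBS 1 differed from TSLP 1 by 0.24 and from TSLP 2 by 0.27. Over 4488 genes with a mean normalized count of at least 500, the pairs with PBS 1 differed by 0.30 to 0.35. The other pairs differed by 0.16 to 0.17 over those genes. The values without PBS 1 are given beside the differences of the members below. Without it the median of the members was -0.01, 19 members lay above 0 and 24 below, and the sign of the fitted difference changed for 18 of the 43. At an unadjusted p under 0.05 there were again 0 members, beside 3.34% of all genes.

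PBS 1 also differed in markers of the cells. Foxp3, which defines the lineage, had normalized counts of 2437 (PBS 1), 5068 (PBS 2), 4507 (TSLP 1) and 5041 (TSLP 2). Ikzf2 (Helios) had 6234 in PBS 1 against 10227 to 11037 in the other 3 libraries, and Ikzf4 (Eos) 798 against 1450 to 1873. Il2ra (CD25) was lowest in PBS 1 too, at 3753 against 4784 to 5343. Ctla4 and Tnfrsf18 (GITR), in contrast, were highest in PBS 1, at 14097 against 12251 to 13449.9 and at 5840 against 3738 to 4580. Foxp3, the defining marker of the labelled cell type, was thus present in all libraries, at its lowest in PBS 1. In bulk RNA, fewer cells of a type and less RNA per cell cannot be told apart. PBS 1 also differed from the other libraries along exon length over abundant genes, as given below. The part of that trend in these markers was not tested.

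Markers of other cells were low in all libraries. The summed normalized counts of Cd8a and Cd8b1, of CD8 T cells, were 147 (PBS 1), 84.0 (PBS 2), 98.0 (TSLP 1) and 129 (TSLP 2), with Cd8b1 the more abundant. The B cell genes Cd79a, Cd79b and Ms4a1 summed to 6.78, 112, 45.2 and 100.3, with Cd79b the most abundant, and the myeloid genes Lyz2, Csf1r, Cd68, Itgam and Adgre1 to 193, 128, 95.2 and 94.1, with Cd68 the most abundant and Adgre1 at 0 in all libraries. Of the natural killer cell genes, Ncr1 was at 0 in all libraries and Klrb1c reached 26.1 at most, and the gamma delta T cell genes Trdc and Tcrg-C1 were not among the names. Genes of naive T cells, which Treg cells also express, were abundant, with a sum of 34101 in PBS 1 and of 28346 to 30485 in the others, led by Ccr7. The myeloid genes that passed the filter went both ways. Cd68 had 169 (PBS 1), 66.0 (PBS 2), 55.6 (TSLP 1) and 16.7 (TSLP 2). Its log2 fold change was -1.75 (SE 0.82), or -1.08 without PBS 1, with an unadjusted limma p of 0.0601. Itgam had 22.3, 19.0, 3.77 and 7.32 in the same order of libraries, with a log2 fold change of -1.78 (SE 1.40). The groups of Cd68 and Itgam did not overlap. Lyz2 went the other way, with 0.969, 43.0, 34.9 and 41.8. Its log2 fold change was 2.07 (SE 1.52), or -0.17 without PBS 1. Of the markers that passed the filter, 0 had an unadjusted p under 0.05 between the groups, and Ms4a1, Csf1r, Adgre1, Ncr1 and Klrb1c did not pass it and were not tested. Their part in the differences below was not tested.

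Most members were abundant. On a scale that divides by gene length, reads per kb of exon per 1000000 reads on genes (RPKM, with exon lengths of GENCODE), the median level was 40.4 over members and 6.98 over 10944 genes, and 20 members were among the highest 10% of genes. The highest level, as a mean of the 4 libraries, was that of Dgka (208 RPKM), an enzyme that removes diacylglycerol, followed by the costimulatory receptor Icos (200.4 RPKM) and the inhibitory receptor Cd5 (192 RPKM). The libraries of these 3 genes overlapped, with ranges of 178 to 244, 188 to 211 and 185 to 200.3 RPKM, so that their order was within the spread. A second tier held Fyn (140.2), Cd3d (139), Cd4 (138), Lck (130.4) and Lat (124). The lowest 4 members were Txk (6.50 RPKM), Tec (3.39), Themis (2.92) and Rcan1 (2.61), and these were the only members below the median rank of all genes. Exon length was the union of all annotated exons of a gene, which understates the level where transcripts use only part of it. The ranks and the shares of paralogs below depend on these lengths.

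**Figure D1:**
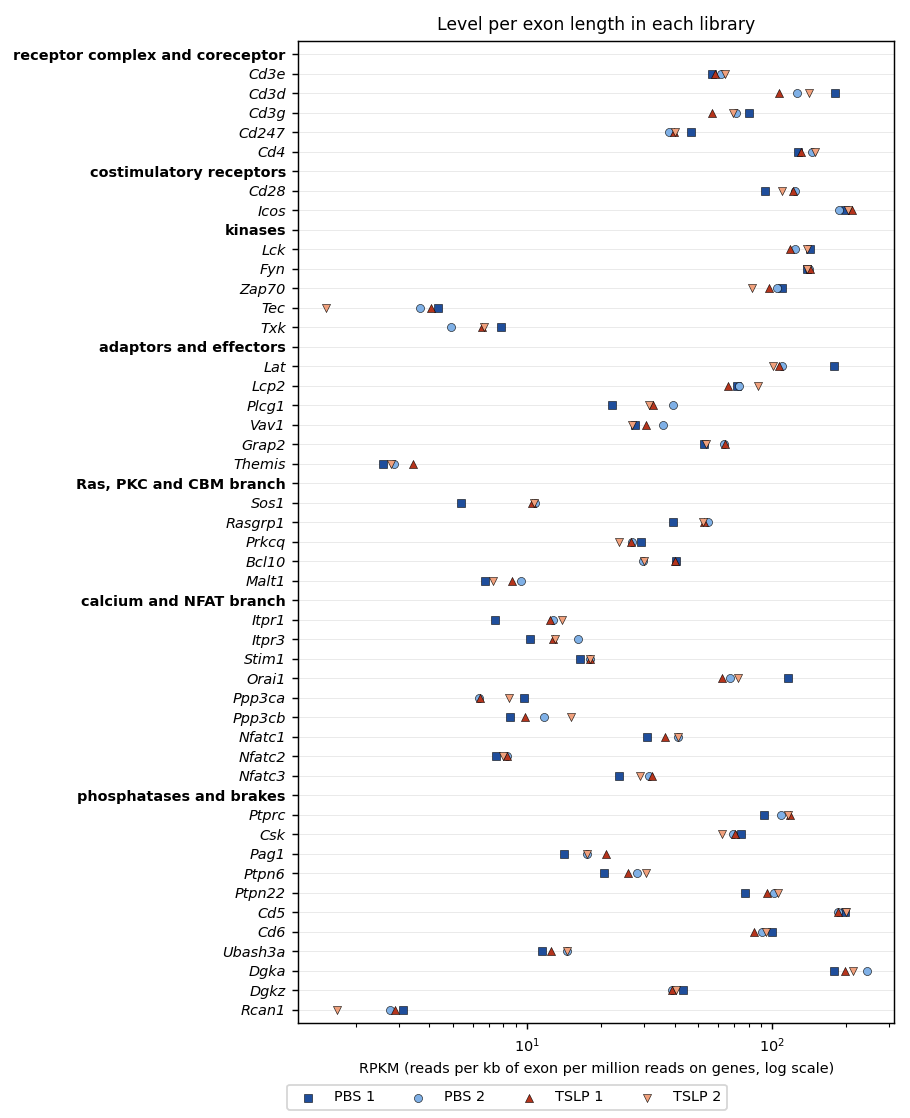
Level of each member in RPKM (log scale), grouped by role, with 1 point for each library. Dgka, Icos and Cd5 lie to the right at about 200 RPKM, and Tec, Themis and Rcan1 below 5 RPKM.

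Paralogs shared their level unevenly in some families and nearly evenly in others. Of the 3 NFAT genes, Nfatc1 held 47.2% to 52.8% of their summed RPKM, Nfatc3 37.0% to 42.1% and Nfatc2 10.2% to 12.1%. The Src kinases Lck and Fyn were near parity, with Lck at 45.3% to 50.7%. Dgka held 80.4% to 86.3% of the sum with Dgkz. For calcineurin, the catalytic subunit gene Ppp3cb held 30.9% of the sum of Ppp3ca, Ppp3cb and Ppp3cc in PBS 1 and 42.1% to 44.6% in the other 3 libraries.

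The first group was the receptor itself. Cd3g, Cd3d and Cd3e lie side by side on chromosome 9 (GRCm38), with Cd3g and Cd3d 1354 bases apart and transcribed away from each other, and Cd3d and Cd3e 11400 bases apart. The 250 bases before the RefSeq start of Cd3d (GRCm38.p6, chr9:44981536-44981785, plus strand) and of Cd3g (chr9:44980432-44980681, minus strand) are shown since these neighbors had negative fitted differences of similar size with all libraries. Capitals mark GGAAA or its reverse complement TTTCC, the core letters that NFAT factors read, which contain the GGAA core of ETS factors.
Cd3d: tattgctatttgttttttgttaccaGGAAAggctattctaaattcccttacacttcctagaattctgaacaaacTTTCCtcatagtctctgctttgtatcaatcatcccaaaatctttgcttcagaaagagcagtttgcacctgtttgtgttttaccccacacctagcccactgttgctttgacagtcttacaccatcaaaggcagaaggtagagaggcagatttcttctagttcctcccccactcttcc
Cd3g: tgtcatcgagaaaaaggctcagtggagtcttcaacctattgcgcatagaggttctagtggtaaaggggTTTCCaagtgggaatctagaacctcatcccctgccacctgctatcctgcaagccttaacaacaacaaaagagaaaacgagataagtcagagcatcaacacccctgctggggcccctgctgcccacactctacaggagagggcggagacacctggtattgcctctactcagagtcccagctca
Cd3d held 2 matches and Cd3g 1. Among 32851 RefSeq windows of this length 55.6% held at least 1 match, as did 30 of the 49 windows (61.2%) of the 34 members with a window in the table. The matches are a description of the letters and not of binding.

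Cd3d had normalized counts of 3588 (PBS 1), 2466 (PBS 2), 2139 (TSLP 1) and 2754 (TSLP 2). PBS 1 was the highest and TSLP 1 the lowest, and the groups overlapped. For Cd3d the log2 fold change was -0.29 (SE 0.26, 95% interval -0.87 to 0.29), and -0.02 without PBS 1. Cd3g had 2884, 2498, 2054 and 2436 in the same order of libraries, so that both TSLP values lay below both PBS values, the nearest by a small margin. For Cd3g the log2 fold change was -0.26 (SE 0.22, -0.76 to 0.23), and -0.16 without PBS 1. Cd3e had 2548, 2707, 2649 and 2804, a narrow spread in which the groups interleaved, with a log2 fold change of 0.05 (SE 0.21), and 0.01 without PBS 1. The 3 CD3 chains, which assemble into 1 complex, thus had fitted differences of both signs.

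Cd247, the zeta chain, which carries most of the activation motifs of the receptor, had 2739 (PBS 1), 2164 (PBS 2), 2344 (TSLP 1) and 2302 (TSLP 2). The TSLP libraries lay between the 2 PBS libraries. This gave a log2 fold change of -0.07 (SE 0.22), and 0.10 without PBS 1. Of its exon length of 5329 bases, 3007 bases (56.4%) are shared with Pou2f1 on the opposite strand, and since the strand setting of the counting was not given in the sources used here, its level is uncertain. Cd4, the coreceptor that brings Lck to the receptor, had 5626, 6294, 5846 and 6463 in the same order, with the higher library of each group above the lower library of the other. Its log2 fold change was 0.05 (SE 0.22), and -0.03 without PBS 1.

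The costimulatory receptors Cd28 and Icos, neighbors on chromosome 1, gave log2 fold changes of 0.11 each. Cd28 had 6251 (PBS 1), 8124 (PBS 2), 8254 (TSLP 1) and 7216 (TSLP 2), so that PBS 1 was low and the other 3 overlapped. Its SE was 0.24, and the value without PBS 1 was -0.07. Icos had 7468, 6918, 8033 and 7506, and its groups did not overlap, although TSLP 2 lay above PBS 1 by less than the gap within either group. For Icos the SE was 0.22 (95% interval -0.40 to 0.62), and the value without PBS 1 was 0.17.

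**Figure D2:**
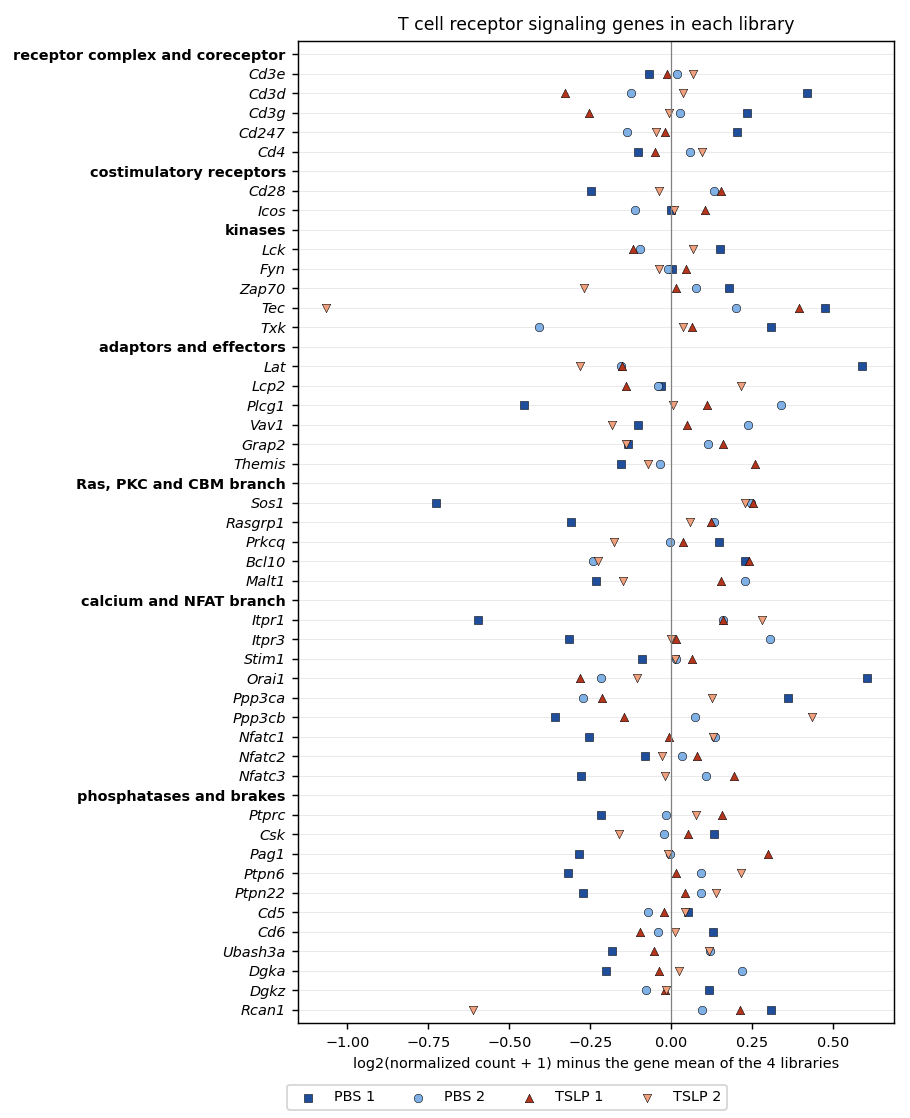
Each member in each library as log2(normalized count + 1) minus the mean of the 4 libraries for that gene, grouped by role. The dark blue squares of PBS 1 lie at one end of the row for 37 of the 43 members, while the groups separate for only 5 of them (Icos, Itpr1, Ptprc, Cd3g and Zap70).

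Members whose groups did not overlap numbered 5 of 43 (11.6%), where 28.9% of all genes tested had groups that did not overlap. Icos, Itpr1 and Ptprc were higher with TSLP, as 14.5% of all genes were, and Cd3g and Zap70 lower, as 14.4% were. An exact permutation test of 2 libraries against 2 cannot give a two-sided p below 0.333, and for these members the unadjusted limma p ran from 0.143 (Itpr1) to 0.631 (Icos).

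Of the 5 kinases, 2 lay above 0 and 3 below, with a median of -0.05, and without PBS 1 there were 3 above and 2 below, with a median of 0.01. Lck had 4596 (PBS 1), 3873 (PBS 2), 3819 (TSLP 1) and 4337 (TSLP 2), and Fyn, its partner Src kinase, had 6663, 6613, 6871 and 6479. Their log2 fold changes were -0.05 and 0.01, and 0.07 and 0.01 without PBS 1, with overlapping groups in both. Zap70, which docks on the phosphorylated CD3 and zeta chains, had 3606, 3356, 3220 and 2644, so that TSLP 2 was the low library. Its log2 fold change was -0.25 (SE 0.22, -0.75 to 0.24), and -0.20 without PBS 1. Without TSLP 2 it was -0.11, and without TSLP 1 it was -0.40.

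Tec had the lowest fold change of the members, and was among the least abundant. Its normalized counts were 178 (PBS 1), 147 (PBS 2), 169 (TSLP 1) and 60.6 (TSLP 2). TSLP 1 lay between the 2 PBS libraries and TSLP 2 far below. The log2 fold change of -0.67 (SE 0.57, -1.95 to 0.61) was -0.53 without PBS 1 and 0.06 without TSLP 2. Txk, a Tec family kinase whose gene lies 2938 bases from Tec on chromosome 5, had 946, 575, 799 and 784, with both TSLP libraries between the PBS libraries, and a log2 fold change of 0.10 (SE 0.29). Without PBS 1 it was 0.46, with the smallest unadjusted p of the members in that fit (0.0966), in which PBS 2, the lowest library, was the only control.

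Among the 6 adaptors and effectors, 4 lay above 0 and 2 below, with a median of 0.05, and without PBS 1 there were 2 above and 4 below, with a median of -0.08. Lat, the membrane scaffold, had 5438 (PBS 1), 3250 (PBS 2), 3258 (TSLP 1) and 2979 (TSLP 2). PBS 1 was far above the other 3 libraries, and PBS 2 lay between the 2 TSLP libraries. The log2 fold change was -0.43 (SE 0.27, -1.05 to 0.19) with all libraries and -0.06 without PBS 1. Plcg1, which cleaves the membrane lipid into the messengers, was spread the other way, with 1921 (PBS 1), 3327 (PBS 2), 2838 (TSLP 1) and 2641 (TSLP 2). Its log2 fold change was 0.11 with all libraries and -0.28 without PBS 1 and 0.51 without PBS 2, with PBS 1 the lowest and PBS 2 the highest library. The scaffold partner Lcp2 (0.07), the Rac exchange factor Vav1 (-0.13), the Gads adaptor gene Grap2 (0.02) and Themis (0.19), a gene of thymocyte selection, had overlapping groups. Without PBS 1 their values were 0.08, -0.30, -0.10 and 0.13.

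In the Ras, protein kinase C and CBM branch, 4 of 5 members lay above 0 and the median was 0.01, but without PBS 1 only 1 of 5 lay above 0 and the median was -0.04. Sos1, a Ras exchange factor, had the highest fold change of the members. It had normalized counts of 626 (PBS 1), 1228 (PBS 2), 1234 (TSLP 1) and 1212 (TSLP 2). The last 3 libraries were nearly equal, with PBS 2 between the 2 TSLP libraries, and PBS 1 alone was low. The log2 fold change of 0.48 (SE 0.32, -0.24 to 1.20) was -0.01 without PBS 1. Rasgrp1, the exchange factor that diacylglycerol recruits, had the same order of libraries in part, with 2420 in PBS 1 and 3125 to 3286 in the others (0.18 with all libraries, -0.04 without PBS 1). Prkcq, the protein kinase C theta gene, gave -0.14, and -0.07 without PBS 1. The CBM scaffold genes Bcl10 and Malt1 gave 0.01 and 0.00, and 0.25 and -0.23 without PBS 1. Bcl10 was split by replicate number, at 2022 and 2038 in PBS 1 and TSLP 1 and at 1459 and 1475 in PBS 2 and TSLP 2.

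The calcium and NFAT branch had 7 of 9 members above 0 and a median of 0.08, beside 0.01 over all genes. Without PBS 1, 5 of 9 lay above 0 and the median was 0.02. Itpr1, a calcium release channel of the endoplasmic reticulum, had the smallest p of the members. It had 1485 (PBS 1), 2507 (PBS 2), 2510 (TSLP 1) and 2730 (TSLP 2). Its groups did not overlap, but PBS 2 and TSLP 1 were nearly equal. The log2 fold change was 0.44 (SE 0.27, -0.18 to 1.06), and 0.06 without PBS 1. Orai1, the pore of the store-operated calcium channel, went the other way, with 2923 in PBS 1 and 1653, 1581 and 1787 in the others. PBS 1 was again alone, on the high side, and PBS 2 lay between the TSLP libraries. For Orai1 the log2 fold change was -0.39 (SE 0.29, -1.04 to 0.26), and 0.02 without PBS 1. Stim1, the sensor that opens Orai1, varied little, from 1869 to 2078 over the 4 libraries, with a log2 fold change of 0.08, or 0.02 without PBS 1. Itpr3 gave 0.01, and -0.30 without PBS 1.

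Of the calcineurin genes, Ppp3cb had 826 (PBS 1), 1114 (PBS 2), 956 (TSLP 1) and 1432 (TSLP 2), with PBS 2 above TSLP 1 and TSLP 2 alone at the top. For Ppp3cb the log2 fold change was 0.29 (SE 0.28, -0.34 to 0.92), and 0.07 without PBS 1. Ppp3ca gave -0.09, and 0.23 without PBS 1, with PBS 1 (1061) the highest and PBS 2 (684) the lowest library. The NFAT genes Nfatc1, Nfatc2 and Nfatc3 gave 0.12, 0.05 and 0.17, and -0.07, -0.01 and -0.02 without PBS 1.

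The 11 phosphatases and brakes had 6 members above 0 and 5 below, with a median of 0.02, which was -0.00026 without PBS 1. Ptprc encodes CD45, the phosphatase that keeps Lck ready, and had the highest normalized counts of the members, 18573 (PBS 1), 21325 (PBS 2), 24063 (TSLP 1) and 22742 (TSLP 2). The 2 TSLP libraries were the highest, with no overlap of the groups. The fit gave a log2 fold change of 0.23 (SE 0.27, -0.38 to 0.84), 0.13 without PBS 1, and -0.04 once a trend over exon length was removed.

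Csk, the kinase that inhibits Lck, gave -0.11, or -0.03 without PBS 1, and Pag1, the membrane adaptor that binds Csk, gave 0.29 (SE 0.23, -0.23 to 0.81), or 0.15 without PBS 1. Pag1 had 1485 (PBS 1), 1807 (PBS 2), 2227 (TSLP 1) and 1799 (TSLP 2), so that PBS 2 and TSLP 2 were nearly equal and the groups overlapped. Ptpn6, the SHP-1 phosphatase gene, had 636, 845, 803 and 922 in that order, with overlapping groups, a log2 fold change of 0.23 (SE 0.26, -0.35 to 0.81), and 0.02 without PBS 1. Ptpn22, a phosphatase of Lck and Zap70, gave 0.18, and no difference to 2 decimals without PBS 1. The inhibitory receptors Cd5 (0.02) and Cd6 (-0.09), the phosphatase-like Ubash3a (0.06) and the diacylglycerol kinases Dgka (-0.02) and Dgkz (-0.04) lay near no difference with all libraries. Without PBS 1 Cd5 gave 0.08, Ubash3a -0.09, Dgkz 0.06 and Dgka -0.23, and Cd6 gave no difference to 2 decimals.

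Rcan1 encodes an inhibitor of calcineurin, and its downstream promoter is a textbook target of NFAT, so that the gene is commonly read as a record of calcineurin activity. The 250 bases before that RefSeq start (GRCm38.p6, chr16:92400079-92400328, minus strand) are shown for this reason, with the same letters in capitals.
Rcan1: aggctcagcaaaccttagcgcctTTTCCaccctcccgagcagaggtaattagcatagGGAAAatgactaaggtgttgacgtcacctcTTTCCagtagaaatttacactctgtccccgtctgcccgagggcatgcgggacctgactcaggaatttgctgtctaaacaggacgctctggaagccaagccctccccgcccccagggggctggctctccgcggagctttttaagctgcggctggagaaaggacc
This window held 3 matches, a number reached by 6.39% of all windows and by 5 of the 49 windows of members (10.2%), and the window before the upstream start of the gene held 0. Rcan1 had normalized counts of 106 (PBS 1), 91.0 (PBS 2), 98.9 (TSLP 1) and 55.4 (TSLP 2). TSLP 1 lay between the PBS libraries, and TSLP 2 alone was low. The log2 fold change was -0.40 (SE 0.57, -1.69 to 0.89), and it was -0.29 without PBS 1 and 0.01 without TSLP 2. The table counts reads per gene, so that transcripts from the upstream and downstream starts were not separated.

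**Figure D3:**
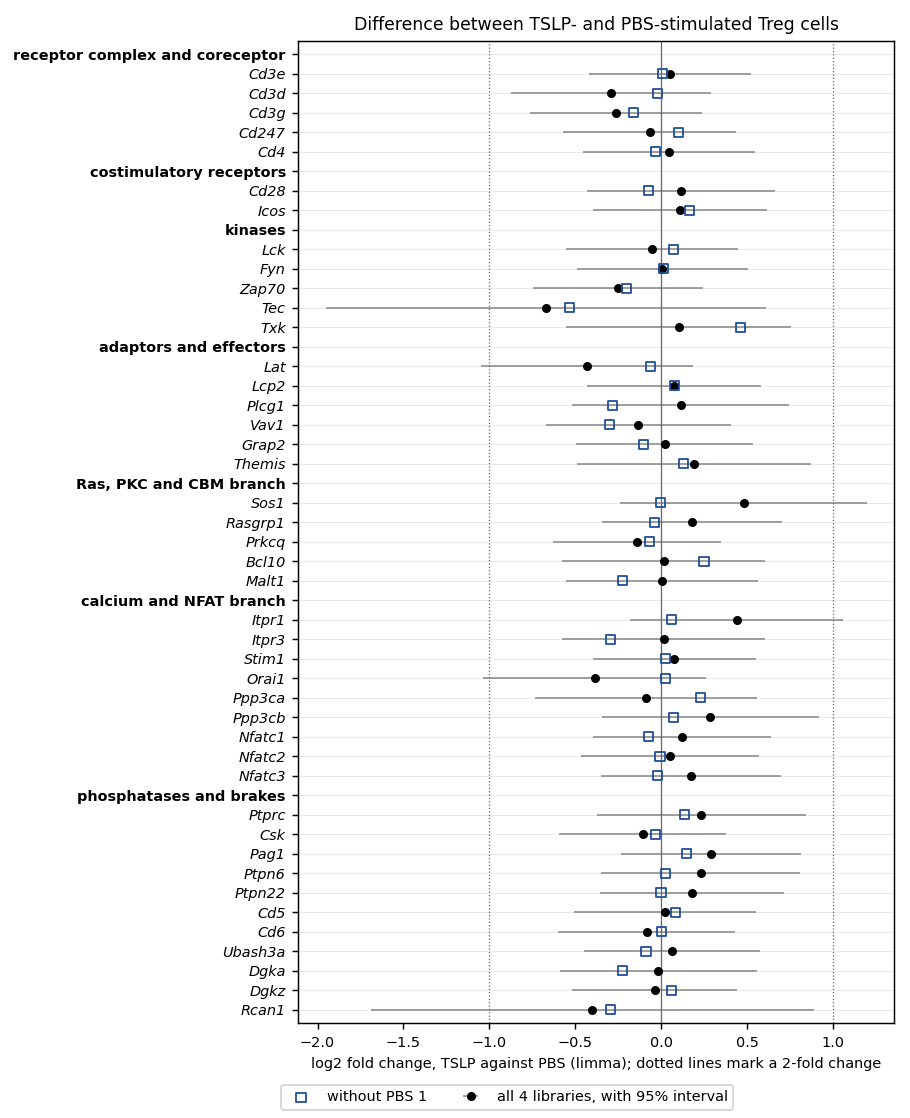
Log2 fold change of each member, TSLP against PBS, from limma with all 4 libraries (filled circles, bars are 95% intervals) and without PBS 1 (open squares). All bars cross 0, and for Lat, Sos1, Itpr1 and Orai1 the open square lies within 0.1 of 0.

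Lat, Orai1 and Cd3d, which were highest in PBS 1, and Sos1 and Itpr1, which were lowest there, differed in exon length, with 2767, 2295 and 1815 bases against 10594 and 18319. Over the 43 members, Spearman's rho between exon length and the log2 difference of PBS 1 from the mean of the other 3 libraries was -0.54, and over 4352 genes of a mean normalized count of at least 500 it was -0.60. For the difference of TSLP and PBS it was 0.60 over the members with all libraries and 0.20 without PBS 1, and over the 4352 genes it was 0.46 and -0.24. These are descriptions across genes, which share their libraries. The 14 shortest members (1815 to 4080 bases) lay a median of 0.22 higher in PBS 1 than in the other libraries and had a median log2 fold change of -0.19, which was -0.03 without PBS 1. The 14 longest (8809 to 18319 bases) lay at -0.30 in PBS 1 and had a median log2 fold change of 0.14, which was 0.04 without PBS 1. What lay behind the trend over length in PBS 1 was not tested.

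**Figure D4:**
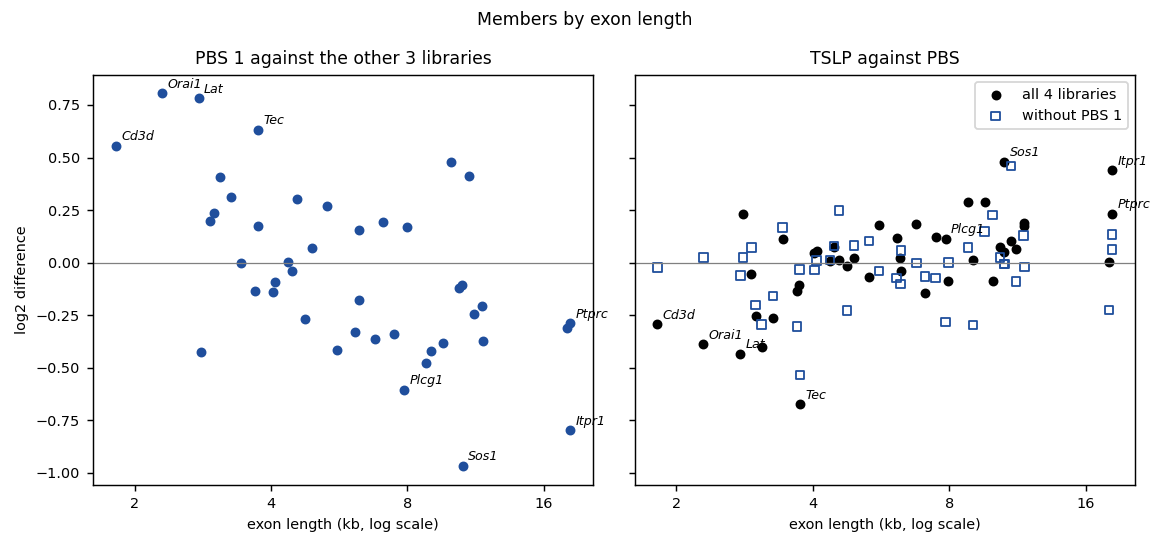
Members by exon length (kb, log scale). The left panel plots the log2 difference of PBS 1 from the mean of the other 3 libraries, which runs from 0.22 (median of the 14 shortest) to -0.30 (median of the 14 longest); the right panel plots the log2 fold change, TSLP against PBS, with all libraries (filled) and without PBS 1 (open).

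The choice of PBS library decided what the test called. Without PBS 2, so that PBS 1 was the only control library and was assumed to vary like the TSLP libraries, 12 of the 43 members had an unadjusted p under 0.05, beside 21.6% of all genes tested. Then 5 members (Lat, Orai1, Itpr1, Sos1 and Cd3d) had an adjusted p under 0.05, beside 7.98% of all genes, with log2 fold changes of -0.80, -0.80, 0.82, 0.96 and -0.56. The other 7 of the 12 were Plcg1 (0.51), Rasgrp1, Ppp3cb, Nfatc3, Ptprc, Pag1 and Ptpn22, all higher with TSLP in that fit. By role, the medians without PBS 2 were -0.24 for the receptor complex, 0.18 for the costimulatory receptors, -0.26 for the kinases (1 of 5 above 0), 0.11 for the adaptors, 0.23 for the Ras, protein kinase C and CBM branch (3 of 5 above 0), 0.31 for the calcium and NFAT branch and 0.19 for the phosphatases and brakes. Without PBS 1 the values of the 5 genes with an adjusted p under 0.05 were -0.06, 0.02, 0.06, -0.01 and -0.02. Leaving out TSLP 1 or TSLP 2 gave 0 members at an unadjusted p under 0.05.

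Other genes of the pathway were taken from a list of 73, which held further adaptors, Ras and MAP kinases, calmodulins, calcium channel genes and phosphatases. Of the 73, 70 were found and 69 were tested (Trac, Trbc1 and Trbc2 were not among the names, and Rcan2 was at 0). Of those tested, 38 lay above 0 and 31 below, with a median of 0.05, and 0 had an unadjusted p under 0.05 by limma. Without PBS 1 there was 1 such gene, beside 3.34% of all genes, and without PBS 2 there were 14 of the 69, beside 21.6%, with 4 at an adjusted p under 0.05, beside 7.98%. The groups did not overlap for 20 of the 69, with 14 higher and 6 lower with TSLP, a share of 29.0% that lay near that of all genes. The highest fold changes were those of Vav3, an exchange factor of the Vav family (0.90, SE 0.51), and Rasa1, which switches Ras off (0.51, SE 0.28). Vav3 had 67.8 (PBS 1), 155 (PBS 2), 202 (TSLP 1) and 184 (TSLP 2), and Rasa1 had 1138, 1952, 1935 and 2319. PBS 1 was the low library in both, and without it the values were 0.31 and 0.12. The lowest were those of Rasgrp4 (-0.57, SE 0.54), with 93.0, 125, 71.6 and 73.2, and of Orai2 (-0.38, SE 0.37), with 568, 488, 280 and 585. Without PBS 1 these were -0.78 and -0.27.

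Of these 69 genes, the smallest p was that of Was, the actin regulator mutated in Wiskott-Aldrich syndrome, which is named here after its values were seen. It had 686 (PBS 1), 666 (PBS 2), 932 (TSLP 1) and 925 (TSLP 2), so that the libraries of each group were close together and the TSLP pair lay above. The fitted difference was 0.46 on the log2 scale (SE 0.23), with an unadjusted limma p of 0.0820 and an adjusted p of 0.9999, and it was 0.48 without PBS 1.

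Among 20 genes that receptor stimulation is known to induce, such as Nr4a1, Egr1 and Cd69, 7 lay above 0 and 13 below, with a median of -0.04, and 0 had an unadjusted p under 0.05 with all libraries. Without PBS 1 the median was 0.14 and 1 gene had such a p, beside 3.34% of all genes. Without PBS 2 the median was -0.28 and 9 of the 20 had one, beside 21.6% of all genes, with 6 at an adjusted p under 0.05, beside 7.98%. Nr4a1, the most abundant of them, had 32266 (PBS 1), 21025 (PBS 2), 26780.5 (TSLP 1) and 19452 (TSLP 2), so that both libraries numbered 1 lay above both numbered 2. The same split was found for 12 of the 20 genes, Fos, Junb and Ier2 among them, for 9 of the 43 members and for 17.2% of all genes tested. What the libraries of a number share is not given in the labels, and its part in these values was not tested.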

How the data were processed

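RNA-seq libraries had been made with a directional kit and read in single-end mode at 50 bases, and the authors mapped the reads to mm10 with Hisat2, counted them per gene with HTSeq and used DESeq2. The values deposited by the authors are a signal: each read count had been scaled by the size factor of its library, and 100% of the values gave whole reads within 0.01 when the scaling was undone. An absence of reads allows up to 3 reads (0.255 to 0.292 counts per 1000000), for counting error only. Of the deposited gene names, 27 had turned into dates.

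Genes that reached 10 normalized counts in 2 or more libraries were fitted with limma 3.58.1 (trend, R 4.3.3) on log2(normalized count + 1), which understates changes of low genes. P-values were two-sided and adjusted over all 11392 genes by the Benjamini-Hochberg method. The fit was checked on simulated data, which held no library that stood apart and no trend over exon length. Alternatives were edgeR 4.0.16 and DESeq2 1.42.0 on recovered reads, TMM scaling, other filters and pseudocounts, no variance trend, a replicate block, removal of the trend over exon length, and leaving out each library. Exon lengths and positions came from GENCODE M21, with 23307 of 24418 names having a unique length, and promoters from RefSeq (GRCm38.p6).

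The members and all lists were chosen with earlier results of these data known. Values with SE are given for the 5 receptor complex genes and the 6 members with the largest log2 fold change in each direction. They are also given for members whose groups did not overlap with an absolute log2 fold change over 0.3. Outside this rule, Cd28 and Txk were added after their values were seen. Icos and Zap70, whose groups did not overlap at a smaller fold change, are also given outside it. Of the other pathway genes, those with an unadjusted p under 0.05 and the 2 largest in each direction are named.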

Additional observations from a re-analysis of the deposited data

How the results depend on the processing

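With all 4 libraries kept, 0 members had an unadjusted p under 0.05 in the limma fit reported and in each of the 11 alternatives, and the smallest p of a member was 0.0820 (Lat, DESeq2). Over all genes, limma gave 192 at an unadjusted p under 0.05, 358 without a filter, 427 without the variance trend, and edgeR and DESeq2 gave 234 each, with 0 at an adjusted p under 0.05 in each. A replicate block gave 258 genes in limma and 215 in edgeR, with 0 at an adjusted p under 0.05 and 0 members. The numbers were not taken to pair the samples in the fit reported, since the labels do not say what they share. Over 11392 genes the difference of PBS 1 and PBS 2 had a correlation of 0.00072 with that of TSLP 1 and TSLP 2. That value cannot decide the pairing. Of the 20 genes induced by receptor stimulation, 12 were higher in both libraries numbered 1, beside 17.2% of all genes. The reverse held for 1 of the 20, beside 17.8% of all genes.

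Leaving out each library gave 109 to 2370 genes at an unadjusted and 0 to 874 at an adjusted p under 0.05, 0 to 12 members at an unadjusted p under 0.05, and a member median of -0.0053 to 0.097, with the high values without PBS 2. Members whose groups did not overlap then numbered 19 (44.2%, beside 64.1% of all genes) without PBS 1, 38 (88.4%, beside 76.3%) without PBS 2, 19 without TSLP 1 and 20 without TSLP 2, beside 56.8% to 59.0% of all genes for these last fits. The sign of the fitted difference changed in at least 1 of these 4 fits for 28 of the 43 members. Among the 5 receptor complex genes and the 6 members of largest fold change in each direction these were Cd247 (-0.238 to 0.102), Cd4 (-0.0343 to 0.128), Sos1 (-0.0053 to 0.965), Orai1 (-0.798 to 0.0242), Tec (-1.40 to 0.0579), Ppp3cb (-0.0041 to 0.578) and Rcan1 (-0.813 to 0.0122). With the trend over exon length removed, Ptprc gave -0.0352 and the member median -0.0191, with 20 members above 0 and 23 below. The sign changed for 9 members there, and 12 others, such as Itpr1 (0.17), Cd3d (-0.14) and Zap70 (-0.17), moved nearer 0 by 1.5 times or more. With 2 libraries a group, the median SE of a member was 0.23.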
